A study of Mus musculus with 6 samples.

Results

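The LIN28, IGF2BP, Musashi and HMGA genes were compared between mouse medulloblastoma and normal cerebellum. The set holds the 9 genes Lin28a, Lin28b, Igf2bp1, Igf2bp2, Igf2bp3, Msi1, Msi2, Hmga1 and Hmga2, found by symbol among the 43629 genes of the deposited table. All 9 had more than 1 normalized count in at least 3 libraries and so were among the 22117 genes tested. RNA-seq was made from 3 tumor samples of mice with the genotype Math1-Cre SmoM2.c/wt and from 3 control samples of cerebellum of mice with the genotype SmoM2.c/wt. Both groups therefore carried the SmoM2 allele, an always active form of the Hedgehog signal transducer Smoothened, and differed by the Cre recombinase. All mice were female, on a C57BL/6 background and 35 days old, and the series' text calls the controls littermates. Math1 is another name of Atoh1, so the Cre is driven by the promoter of a gene of granule neuron progenitors. The tumor samples are whole tissue and hold whatever other cells lay in it.

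These genes encode proteins that are abundant in embryonic or stem cells, several of which are silenced in most adult tissues and return in cancers. LIN28A and LIN28B bind the precursors of the let-7 microRNAs and block their maturation, and let-7 in turn represses the mRNAs of LIN28, of HMGA2 and of IGF2BP1 and IGF2BP3. The IGF2BP proteins bind target mRNAs and affect their stability, location and translation. Musashi proteins bind mRNAs in neural progenitors and act mostly on translation, while HMGA proteins bind AT-rich DNA in chromatin. In the cerebellum, granule neuron progenitors divide after birth under Hedgehog signalling and are the cells from which tumors of this kind arise.

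Each value is a normalized count, which is a read count divided by the size factor of its library. The libraries held from 44902217 to 69550200 reads, and 3 reads equalled between 2.17 and 3.57 normalized counts. Smo, which encodes Smoothened, had 1012 ± 41.0 normalized counts (SD, n = 3) in control and 4969 ± 582 in tumor. The labels number the libraries but do not tie each to its own mouse. The p-values therefore rest on the spread among these 6 samples, and that spread may be technical. With limma and Benjamini-Hochberg adjustment over all tested genes, 13738 genes (62.1%) were called at an adjusted p under 0.05. Of these, 6761 genes (30.6%) were higher and 6977 (31.5%) lower in tumor. Marker lists of 11 cell types differed widely between the groups. Of the granule neuron progenitor markers, 10 of 11 rose, and their summed level went from between 59641 and 67539 to between 217685 and 231529 normalized counts. All 10 mature granule neuron markers, all 9 oligodendrocyte markers and 8 of 9 Purkinje cell markers fell, and 10 of 11 microglia and macrophage markers rose. No marker was at 0 in all libraries of a group. In whole tissue, fewer cells of a type and less RNA per cell cannot be told apart.

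The sequences that link these families are the seed of let-7 and its matches in the members' mRNAs, so they are shown before the levels. The 11 mouse let-7 and miR-98 loci matched in the RefSeq table (build GRCm38.p6) encode mature 5p strands that all share the seed GAGGUAG at bases 2 to 8. Mature sequences are printed for the microRNAs of loci described further on, with the seed in capitals.
mmu-let-7a-5p: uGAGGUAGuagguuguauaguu
mmu-let-7b-5p: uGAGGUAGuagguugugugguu
mmu-let-7c-5p: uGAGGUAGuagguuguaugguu
mmu-let-7d-5p: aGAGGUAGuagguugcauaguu
mmu-let-7i-5p: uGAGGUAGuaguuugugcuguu

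The complement of this seed in an mRNA reads CTACCTC. It was searched on the sense strand of the longest annotated 3′ untranslated region (UTR) of each gene in GENCODE M21, which uses build GRCm38, the same assembly as mm10. Igf2bp1, Lin28b and Hmga2 each held 4 matches, Lin28a held 2, and Igf2bp2, Igf2bp3 and Hmga1 held 1 each. Msi1 and Msi2 held 0. Of the 16378 tested genes with an annotated 3′ UTR, 1639 (10.01%) held at least 1 match, 200 (1.22%) at least 2 and 11 (0.0672%) at least 4. These 11 genes include the 3 members named above. The UTRs of Igf2bp1, Lin28b and Hmga2 were 6337, 4445 and 3014 bases long. The median was 1109 over all 16378 genes and 4262 over the 11, and the counts are not corrected for length. The matches of the 3 members with 4, and those of the other 2 IGF2BP genes, are printed with 11 bases on each side and the match in capitals.
Igf2bp1 match 1, chr11:95961768-95961796, minus strand: tgcgaagtaaaCTACCTCaaggtgtgaag
Igf2bp1 match 2, chr11:95959347-95959375, minus strand: agtgctattaaCTACCTCagccccagagg
Igf2bp1 match 3, chr11:95958753-95958781, minus strand: aaatggatgaaCTACCTCagtcctcacag
Igf2bp1 match 4, chr11:95958130-95958158, minus strand: ttggttttaatCTACCTCttagcaaaaca
Igf2bp2 match 1, chr16:22059463-22059491, minus strand: acaaataaaagCTACCTCaggtgtttttt
Igf2bp3 match 1, chr6:49086777-49086805, minus strand: tttttactcaaCTACCTCaggtattcagt
Lin28b match 1, chr10:45381012-45381040, minus strand: gggcgggaagtCTACCTCatgcaagcaca
Lin28b match 2, chr10:45378638-45378666, minus strand: cttgttagtaaCTACCTCtgagtttgaca
Lin28b match 3, chr10:45378466-45378494, minus strand: acagcacatggCTACCTCccagctaccac
Lin28b match 4, chr10:45377050-45377078, minus strand: gatggcaccgaCTACCTCttcaatcactt
Hmga2 match 1, chr10:120364214-120364242, minus strand: acattcaatttCTACCTCagcatcagttg
Hmga2 match 2, chr10:120362977-120363005, minus strand: actcctcaataCTACCTCtgaatgctaca
Hmga2 match 3, chr10:120362539-120362567, minus strand: tttgcaaggaaCTACCTCcacacttccaa
Hmga2 match 4, chr10:120361681-120361709, minus strand: aaaacacactaCTACCTCttaagtcccag

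Of the 9 members, 4 rose, 3 fell and 2 did not pass. Igf2bp1, Igf2bp3, Msi1 and Hmga1 were higher in tumor, while Lin28b, Igf2bp2 and Msi2 were lower. The 7 members called stand beside 62.1% of all genes called, so their number is no result about the set. The share of all genes called was 60.6% with edgeR's quasi-likelihood test and 59.4% with DESeq2 on the recovered reads. The median log2 fold change of the members was 0.89, against -0.02 over all tested genes. The groups did not overlap for 8 members, beside 67.7% of all genes. The 3 tumor libraries lay above the 3 control libraries for 5 members and below them for 3, beside 33.2% and 34.5% of all genes. Lin28a was the 1 member whose groups overlapped. The log2 fold changes ran from -1.25 for Lin28b to 6.31 for Igf2bp1.

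**Figure D1:**
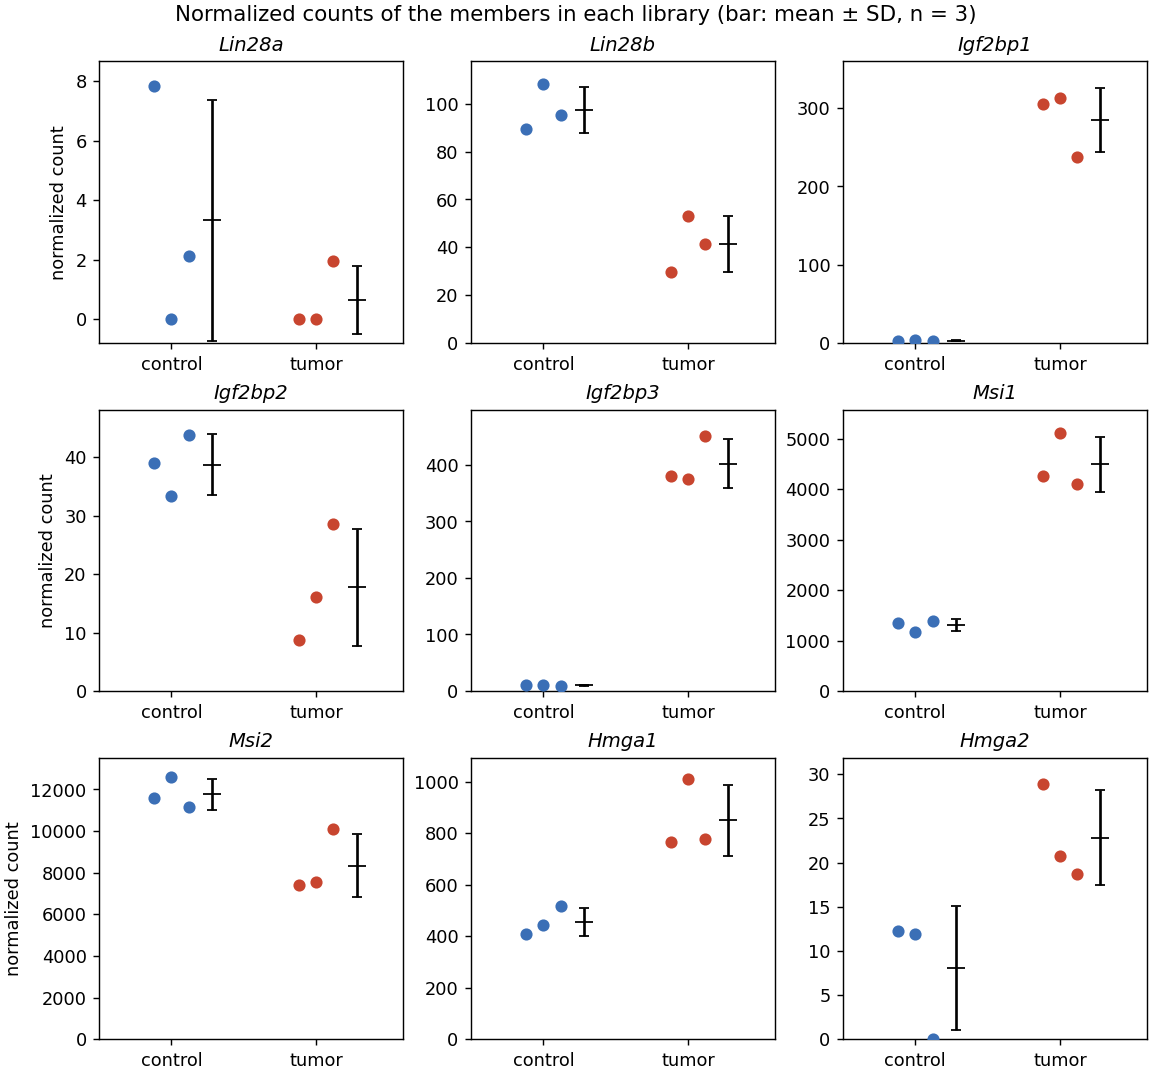
Normalized counts (y axis, separate scale per gene) of the 9 members in the 3 control (blue) and 3 tumor (red) libraries, drawn in the order 1 to 3, with mean ± SD in black (n = 3). Igf2bp1 stays at 3.57 or below in control and at 238.1 or above in tumor, whereas Lin28b, Igf2bp2 and Msi2 are lower in all tumor libraries than in any control library.

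Igf2bp1 encodes an RNA-binding protein that is abundant in the embryo and nearly absent from most adult tissues. Its gene (ENSMUSG00000013415) lies on the minus strand at chr11:95957163-96005940 in mm10. Control libraries 1, 2 and 3 had 2.23, 3.57 and 2.14 normalized counts, and tumor libraries 1, 2 and 3 had 304.8, 312.8 and 238.1. In control these values stand for 2, 3 and 2 reads, so every control library was at or under the floor of 3 reads, while the tumor libraries held 422, 331 and 242. The 3 tumors differed little from each other against this gap. After scaling by the size factors, the ratio of the 995 tumor reads to the 7 control reads was 109.8, with a 95% counting interval of 53.1 to 274 that leaves out the spread between samples. The log2 fold change on log2(value + 1) was 6.31 ± 0.34 (SE), with an adjusted p of 2.28e-07 in limma. It lay at the 99.5th percentile of the fold changes of all tested genes, and Igf2bp1 was called in all 17 alternative analyses.

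Igf2bp3, a paralog with the same set of RNA-binding domains and a like embryonic pattern, lies on the minus strand at chr6:49085221-49214954 (ENSMUSG00000029814). Its normalized counts were 10.1, 10.7 and 9.62 in control and 380.6, 374.2 and 451.6 in tumor. Each control library held 9 reads, and the tumor libraries held 1382 reads together. The mean rose from 10.1 ± 0.542 to 402.1 ± 42.9 (SD, n = 3), a 39.7-fold difference. The log2 fold change was 5.18 ± 0.25 (SE, limma adjusted p = 1.14e-07), and the call held in all 17 alternatives. Exons of Igf2bp3 overlap those of Malsu1 on the opposite strand, which had 580.6 to 674.5 normalized counts in control and 577.4 to 698.5 in tumor. The sources used do not state whether the counting used strand, so reads from the overlap may not be told apart.

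Igf2bp2, the paralog that many adult tissues keep, moved the other way. Its gene (ENSMUSG00000033581) lies on the minus strand at chr16:22059009-22163299. Normalized counts were 39.1, 33.3 and 43.8 in control and 8.67, 16.1 and 28.5 in tumor. The groups did not overlap, but tumor 3 came close to the lowest control and the 3 tumors differed more from each other than the controls did. The mean fell from 38.7 ± 5.28 to 17.8 ± 10.04 (SD, n = 3), with a log2 fold change of -1.22 ± 0.46 (SE) and a limma adjusted p of 0.0405. This call was lost in 9 of 16 alternatives, among them edgeR's quasi-likelihood test (adjusted p = 0.0548) and leaving out tumor 1 (log2 fold change -0.82, adjusted p = 0.124). It was also lost without tumor 2 (adjusted p = 0.0778) and without control 1, 2 or 3 (0.0971, 0.0711 and 0.118). The order of the tumors was shared by 3 summed marker lists that were lower in tumor. In tumors 1, 2 and 3, Purkinje cell markers summed to 44108, 47448 and 82892, against at least 495052 in each control. Mature granule neuron markers summed to 47874, 50059 and 63806, against at least 311496, and endothelial and mural markers to 6912, 10241 and 12270, against at least 21983. The other lists with lower sums in tumor had other orders. In tumors 1, 2 and 3, choroid plexus markers summed to 29131, 24630 and 5987, and oligodendrocyte markers to 87287, 65315 and 168621. Astrocyte and Bergmann glia markers summed to 209143, 197289 and 218545, and meningeal fibroblast markers to 14566, 17268 and 16528. The part of these cells was not tested.

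Within each library, the log2 ratio of Igf2bp1 to Igf2bp2 went from -3.46 ± 0.49 (SD, n = 3) in control to 4.07 ± 0.99 in tumor. The difference of 7.53 separated the groups without overlap, and the exact permutation test gave p = 0.1, the smallest that 3 against 3 libraries allow. For Igf2bp3 to Igf2bp2 the ratio went from -1.83 ± 0.26 to 4.57 ± 0.69, a difference of 6.40 (exact permutation p = 0.1). Both are among 5 ratios tested, for which the adjusted p of these was 0.167.

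Lin28b encodes the LIN28 protein that keeps let-7 precursors from maturing in many tumors and in fetal liver and brain. Its gene (ENSMUSG00000063804) lies on the minus strand at chr10:45376620-45470201. Normalized counts were 89.3, 108.2 and 95.2 in control and 29.6, 52.9 and 41.3 in tumor. Every tumor library was below every control library. The mean fell from 97.6 ± 9.66 to 41.3 ± 11.7 (SD, n = 3), a 2.36-fold difference, with 260 reads in control and 139 in tumor. The log2 fold change was -1.25 ± 0.30 (SE, limma adjusted p = 0.00448), and all 17 alternatives kept the call, with adjusted p from 0.000323 to 0.0241. The mature granule neuron markers fell alongside, from between 311496 and 351091 summed normalized counts to between 47874 and 63806. Their sums in tumors 1, 2 and 3 were 47874, 50059 and 63806, an order that Lin28b did not share. Summed Purkinje cell, oligodendrocyte, endothelial and mural, astrocyte, meningeal and choroid plexus markers fell too. Of these, the meningeal sums had the order of Lin28b, with 14566, 17268 and 16528 in tumors 1, 2 and 3, and the others did not. The part of these cells in the level of Lin28b was not tested.

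Lin28a, the paralog of embryonic stem cells, lies on the minus strand at chr4:134003330-134018841 (ENSMUSG00000050966). It had 7, 0 and 2 reads in the control libraries and 0, 0 and 2 in the tumor libraries, so no level could be told from the floor in 5 of 6 libraries. The scaled ratio of tumor to control reads was 0.172, with a 95% counting interval of 0.0180 to 0.829 that leaves out the spread between samples. Lin28a did not pass (log2 fold change -1.07, limma adjusted p = 0.312), and no alternative called it. The log2 fold change was -0.30 without control 1 and -1.87 without control 2. The log2 ratio of Lin28b to Lin28a differed by -0.18 between tumor and control with overlapping groups (exact permutation p = 0.9).

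Msi1 encodes the Musashi protein of neural stem and progenitor cells. Its gene (ENSMUSG00000054256) lies on the plus strand at chr5:115429599-115455698. Normalized counts were 1357, 1176 and 1387 in control and 4267, 5113 and 4097 in tumor. All tumors were above all controls, and the mean rose 3.44-fold from 1306 ± 114 to 4492 ± 545 (SD, n = 3). The log2 fold change was 1.78 ± 0.11 (SE, limma adjusted p = 5.03e-07), called in all 17 alternatives. Of the neural stem and progenitor markers, 6 of 10 rose and 1 fell, and of the markers of astrocytes and Bergmann glia, which also make Musashi-1, 3 of 12 rose and 8 fell. The summed level of the first list went from between 18817 and 20885 to between 35913 and 42752 normalized counts and that of the second from between 359074 and 373077 to between 197289 and 218545. Their part in the level of Msi1 was not tested.

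Msi2, the more widely expressed Musashi, lies on the minus strand at chr11:88339382-88718513 (ENSMUSG00000069769). Normalized counts were 11560, 12581 and 11155 in control and 7396, 7552 and 10073 in tumor. Tumor 3 came closest to the controls, and the groups did not overlap. The mean fell from 11765 ± 735 to 8340 ± 1502 (SD, n = 3), a 1.41-fold difference with a log2 fold change of -0.51 ± 0.12 (SE, limma adjusted p = 0.00448). All 17 alternatives called it. The order of the tumors was that of Igf2bp2 and of the summed Purkinje cell, mature granule neuron and endothelial markers given there. The other lists given there did not share it. Tumor 3 also held the most summed oligodendrocyte markers of the tumors, 168621 against 87287 and 65315 normalized counts in tumors 1 and 2 and at least 713607 in each control. The part of these cells was not tested. The log2 ratio of Msi1 to Msi2 went from -3.17 ± 0.22 to -0.88 ± 0.38 (SD, n = 3), a difference of 2.29 without overlap (exact permutation p = 0.1).

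Hmga1 encodes a chromatin protein of dividing cells. Its gene (ENSMUSG00000046711) lies on the plus strand at chr17:27556620-27563674. Normalized counts were 408.7, 442.3 and 516.5 in control and 766.9, 1010.2 and 776.2 in tumor. All tumors were above all controls. The mean rose 1.87-fold from 455.8 ± 55.1 to 851.1 ± 138 (SD, n = 3), with a log2 fold change of 0.89 ± 0.15 (SE) and a limma adjusted p of 0.000497, called in all 17 alternatives. Exons overlap AI413582 on the opposite strand, which had 743.1 to 811.8 normalized counts in control and 282.4 to 313.7 in tumor. How the authors' counting split such reads is not stated in the sources used.

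Hmga2, the paralog that is most confined to the embryo and a textbook let-7 target, lies on the minus strand at chr10:120361275-120476469 (ENSMUSG00000056758). Normalized counts were 12.3, 11.9 and 0 in control and 28.9, 20.8 and 18.7 in tumor, from 21 and 81 reads. Every tumor library lay above every control library, and control 3 held 0 reads while the other controls held 11 and 10. The scaled read ratio was 2.98, with a 95% counting interval of 1.83 to 5.07. In limma Hmga2 did not pass (log2 fold change 2.08 ± 0.91 SE, adjusted p = 0.0722), nor in edgeR (adjusted p = 0.110) or DESeq2 (0.0973). It was called in 3 of 16 alternatives, namely with a pseudocount of 5 (adjusted p = 0.0364), with the replicate number as a block (0.0264) and without control 1 (0.0445). Without control 3, the library with 0 reads, the log2 fold change dropped to 0.84, and the adjusted p over all alternatives ran from 0.0264 to 0.173.

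**Figure D2:**
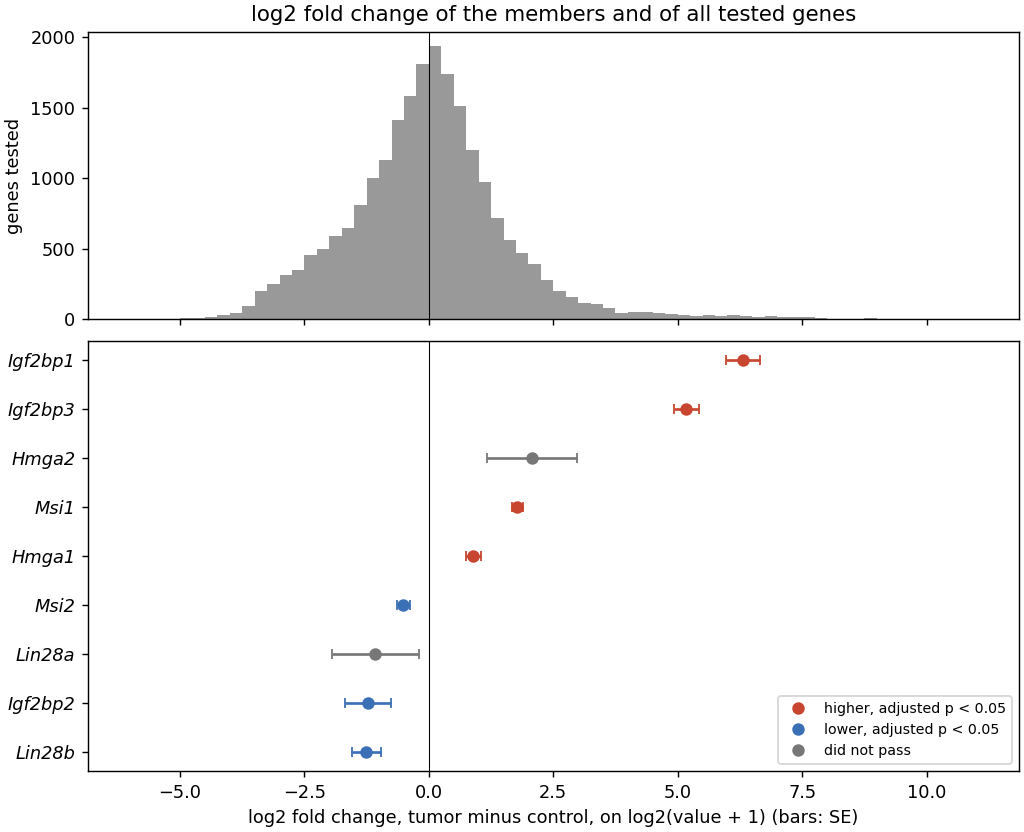
Upper panel: number of tested genes (y axis) by log2 fold change, tumor minus control, on log2(value + 1) (x axis). Lower panel: the 9 members on the same axis with SE bars, from -1.25 for Lin28b to 6.31 for Igf2bp1, with red for higher, blue for lower and grey for members that did not pass.

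Levels of different genes were compared per kilobase of exon annotated in GENCODE M21. There Lin28b reaches base 45486395 of chr10, against 45470201 in the deposited coordinates, so its length may differ from the one counted. In control the order began with Msi2 at 1131 ± 70.7 normalized counts per kilobase (SD, n = 3), followed by Msi1 at 225.3 ± 19.7 and Hmga1 at 214.5 ± 25.9, whose libraries overlapped. Lin28b followed at 10.8 ± 1.07 and Igf2bp2 at 5.23 ± 0.714, each apart from its neighbours. Igf2bp3, Hmga2, Lin28a and Igf2bp1 were at 1.24, 1.19, 0.830 and 0.273, and each overlapped its neighbour. In tumor, Msi2 at 801.6 ± 144 and Msi1 at 774.5 ± 93.9 overlapped, and Hmga1 stood at 400.5 ± 64.9. Igf2bp3 at 49.3 ± 5.26 and Igf2bp1 at 29.5 ± 4.24 came next, each apart from its neighbours. Lin28b, Hmga2 and Igf2bp2 were at 4.55, 3.37 and 2.40 with overlapping neighbours, and Lin28a was last at 0.164. By the means alone, Igf2bp1 moved from the last place to the fifth and Lin28b from the fourth to the sixth. The place of Igf2bp1 in control and that of Lin28b in tumor are not settled, as their libraries overlapped those of a neighbour.

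The genes most like 2 members over the 6 libraries were found by the root mean square difference in log2(value + 1) after centring on the control mean. For Igf2bp1 they were Kif14, a kinesin of cell division (0.201), the homeobox gene Otx1 (0.222) and Tox3, which encodes a high mobility group box protein (0.222). Their log2 fold changes were 6.32, 6.28 and 6.15. For Lin28b they were Caskin1, which encodes a synaptic scaffold protein (0.0541), the cadherin gene Cdh22 (0.0782) and Lrrn2, which encodes a leucine-rich repeat membrane protein (0.0804). Their log2 fold changes were -1.20, -1.32 and -1.31. Caskin1 had 1980, 2288 and 2100 normalized counts in control and 691.8, 1167 and 977.9 in tumor, the same order of libraries within each group as Lin28b. As Caskin1 was picked for its likeness over these same libraries, the shared order is no separate result.

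Of 17 tested genes that process microRNAs, 10 rose, 1 fell and 6 did not pass. Over all genes, 30.6% were higher and 31.5% lower, and these shares stand beside the counts of the other lists too. The log2 fold changes of the list ran from -0.71 to 0.90, with a median of 0.36 against -0.02 over all genes. Prkra, a partner of Dicer, rose from 1441 ± 143 to 2696 ± 441 normalized counts (SD, n = 3; log2 fold change 0.90), and Khsrp, which promotes maturation of let-7, rose from 2667 ± 104 to 4548 ± 706 (0.76). Zcchc11, the terminal uridylyltransferase TUT4 that LIN28A recruits to let-7 precursors, rose by a log2 fold change of 0.73, and Dis3l2, the exonuclease that degrades the tailed precursors, by 0.63. Ago3, an Argonaute protein, fell from 4072 ± 371 to 2508 ± 387 (log2 fold change -0.71). Dicer1 was called higher by 0.22, a call lost in 7 of 17 alternatives, including those without control 1, control 3, tumor 2 or tumor 3 (adjusted p up to 0.259). Trim71, a let-7 target of the embryo, was near 0 in both groups and was not tested.

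Reads at let-7 loci were looked at after their values had been seen. Whether they come from precursors or from host transcripts was not tested. No small-RNA library was analysed here, so no level of mature let-7 is given. At Mirlet7a-1 (chr13:48538171-48538270, minus strand), normalized counts were 118.4, 141.5 and 78.1 in control and 25.3, 10.4 and 29.5 in tumor. All tumors were below all controls, with a log2 fold change of -2.40 ± 0.43 (SE, limma adjusted p = 0.000816). The transcript 6720427I07Rik, which spans the Mirlet7d locus on the same chromosome, had 2327, 2417 and 2313 in control and 1091, 1024 and 972.0 in tumor. It fell by 1.19 on the log2 scale (adjusted p = 1.57e-06 in limma), while Mirlet7d itself is listed at 0 in all 6 libraries.

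Mirlet7c-2 on chromosome 15 had 121.7, 129.6 and 129.4 normalized counts in control and 39.7, 74.7 and 36.4 in tumor. It fell without overlap, with a log2 fold change of -1.39 ± 0.31 (SE, limma adjusted p = 0.00313). Its neighbour Mirlet7b, with 50.3, 52.3 and 31.0 against 15.9, 32.1 and 21.6, did not pass (adjusted p = 0.0650) but was called without tumor 2 (0.0338) and with upper-quartile factors (0.0420). Mirlet7i was near the floor with overlapping groups and did not pass (limma adjusted p = 0.553).

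Host transcripts on 2 other chromosomes moved the other way. Mir99ahg on chromosome 16, which holds the let-7c-1 locus, had 380.8, 449.4 and 417.0 normalized counts in control and 1781, 1424 and 1042 in tumor (log2 fold change 1.73 ± 0.18 SE, limma adjusted p = 1.91e-05). The locus Mirlet7c-1 itself had 2 reads in control and 25 in tumor, and its call (adjusted p = 0.0134) was lost without tumor 3 (0.0502). 2610203C20Rik on chromosome 9, which spans the let-7a-2, Mir100 and Mir125b-1 loci, had 2725, 2141 and 2403 in control and 7253, 7904 and 4238 in tumor. Its log2 fold change was 1.37 ± 0.21 (SE, limma adjusted p = 0.000255). Transcripts at let-7 loci thus differed in direction between chromosomes.

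**Figure D3:**
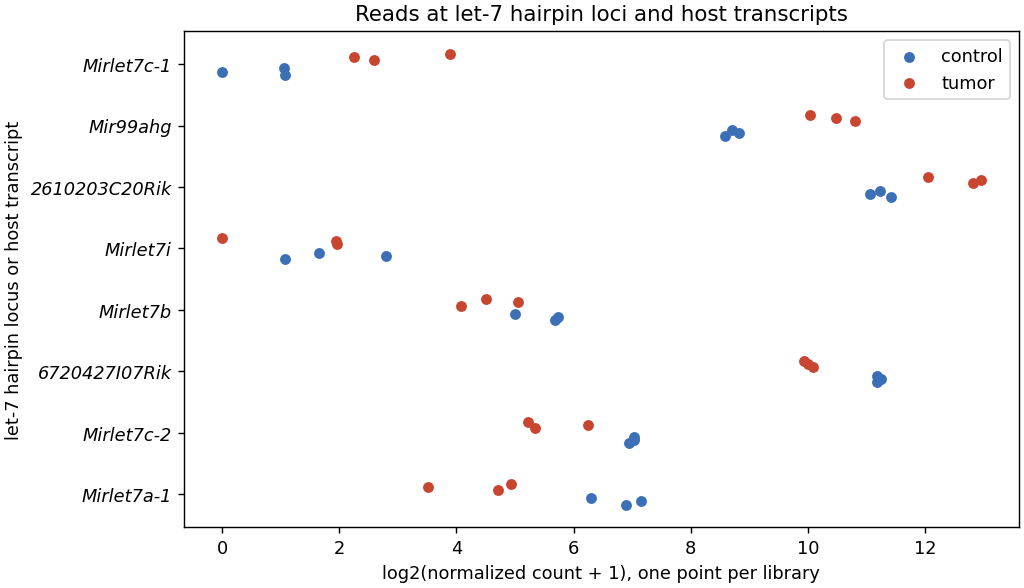
Log2(normalized count + 1) (x axis) at let-7 hairpin loci and host transcripts (y axis), with 1 point per library in blue for control and red for tumor. Tumor points lie below all control points at Mirlet7a-1, Mirlet7c-2 and 6720427I07Rik and above them at Mir99ahg, 2610203C20Rik and Mirlet7c-1.

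Genes known as let-7 targets, a list that holds 6 of the members, had 16 of 25 higher, 4 lower and 5 that did not pass, with a median log2 fold change of 1.22. Cdk6, a cell cycle kinase, rose from 24.3 ± 10.8 to 3733 ± 835 normalized counts (SD, n = 3; log2 fold change 7.26), and the transcription factor gene Mycn from 234.5 ± 22.6 to 10936 ± 939 (5.54). The 2 lowest were the members Lin28b and Igf2bp2. Several of the others, such as Ccnd1 and Ccnd2, are cell cycle genes that also mark dividing progenitors. Over 17 alternatives the log2 fold changes of these 2 genes ran from 3.37 to 3.57 and from 5.02 to 5.26. The part of dividing progenitors in the levels of this list was not tested. Leaving out any control lowered the number called lower from 4 to 2.

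Over all tested genes with a 3′ UTR, a let-7 seed match went with little difference. Of the 1639 genes with at least 1 match, 33.8% were higher and 38.8% lower in tumor, against 34.7% and 35.5% of genes with no match, and the median log2 fold changes were -0.07 and -0.02. The median UTR lengths of these groups were 2306 and 1006 bases. Of the 11 genes with at least 4 matches, 5 were higher and 4 lower. Nr6a1, an orphan nuclear receptor gene with 8 matches, fell from 433.0 ± 37.1 to 193.5 ± 45.2 normalized counts (SD, n = 3; log2 fold change -1.18). Among members, those with 4 matches ran from Lin28b at -1.25 to Igf2bp1 at 6.31, and those with 0 matches were Msi1 at 1.78 and Msi2 at -0.51. A match is a run of letters and was not tested as a site in these samples.

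**Figure D4:**
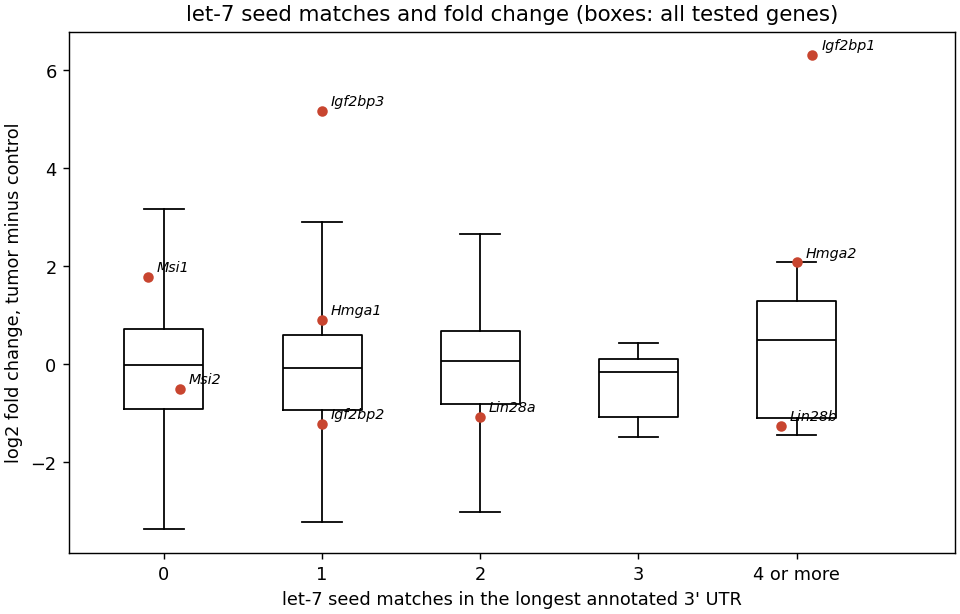
Log2 fold change, tumor minus control (y axis), by the number of let-7 seed matches in the longest annotated 3′ UTR (x axis). Boxes show the quartiles and median of the tested genes with an annotated 3′ UTR, members included. Whiskers show the usual box plot range, with genes beyond it not drawn. Red points are the 9 members, of which Lin28b, Hmga2 and Igf2bp1 all have 4 matches and lie at -1.25, 2.08 and 6.31.

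Among 15 partner proteins and mRNA targets of IGF2BP proteins, 10 rose, 4 fell and 1 did not pass, with a median log2 fold change of 0.66. Myc, whose mRNA IGF2BP1 shields from decay, rose from 66.9 ± 3.42 to 1725 ± 315 normalized counts (SD, n = 3; log2 fold change 4.65). Ybx1, which encodes a Y-box protein found in the same RNA-protein particles, rose from 6305 ± 524 to 29920 ± 3108 (2.24). Mapk4, whose mRNA IGF2BP1 binds in human cells, fell from 2078 ± 59.3 to 919.7 ± 159 (log2 fold change -1.19). Igf2, the fetal growth factor gene that named the family, fell from 12169 ± 1431 to 7613 ± 423 (-0.67). Igf2 is also made by meninges, and of 9 meningeal fibroblast markers, a list that holds Igf2, 2 rose and 5 fell. The summed levels of this list were 19922 to 24886 in control and 14566 to 17268 in tumor. Igf2 itself, with means of 12169 and 7613, is a large part of these sums, so they are no measure apart from it. Of 10 markers of the choroid plexus, which also makes Igf2, 1 rose and 8 fell, with summed levels of 74780 to 129761 in control and 5987 to 29131 in tumor. The part of both tissues was not tested.

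Other fetal and oncofetal genes showed no common direction. Of 11 tested, 4 rose, 4 fell and 3 did not pass, with a median log2 fold change of -0.02. Gpc3, a cell surface proteoglycan gene of fetal tissues, rose from 136.6 ± 41.8 to 987.9 ± 77.7 normalized counts (SD, n = 3; log2 fold change 2.89), and Igf1r, the receptor gene for insulin-like growth factors, from 729.6 ± 34.2 to 1384 ± 187 (0.92). Plag1, a transcription factor gene, fell from 235.4 ± 31.4 to 55.8 ± 6.61 (-2.06). Dlk1, an imprinted gene of fetal tissues, fell from 130.02 ± 71.6 to 30.1 ± 22.5 (-2.17), a call lost without control 3 (limma adjusted p = 0.0527). Igf2r, the receptor gene that clears IGF2, fell by 1.49 on the log2 scale, and the imprinted H19 did not pass (0.14, adjusted p = 0.606).

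IGF2BP proteins also read the N6-methyladenosine mark on mRNA. Of 16 genes for writers, erasers and readers of the mark, 10 rose, 1 fell and 5 did not pass, with a median log2 fold change of 0.39. Rbm15b, an adaptor of the writer complex, rose from 1940 ± 121 to 6779 ± 572 normalized counts (SD, n = 3; log2 fold change 1.80), and the reader gene Ythdf2 from 2410 ± 175 to 5273 ± 377 (1.13). Ythdc2, a reader with helicase domains, fell from 3467 ± 92.7 to 2346 ± 248 (-0.57). Ythdf1 was called higher by 0.20, a call lost in 10 of 17 alternatives, including those without any 1 of the 3 controls, tumor 1 or tumor 3 (adjusted p up to 0.368). The methyltransferase gene Mettl3 (0.03) and the demethylase gene Fto (-0.16) did not pass.

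Of 12 mRNA targets and partners of Musashi proteins, 7 rose, 3 fell and 2 did not pass, with a median log2 fold change of 0.93. Dcx, a microtubule protein gene of young neurons, rose from 629.5 ± 33.2 to 37177 ± 3982 normalized counts (SD, n = 3; log2 fold change 5.88), and Robo3, an axon guidance receptor gene, from 13.6 ± 6.71 to 176.8 ± 33.8 (3.68). Numb, which encodes the Notch inhibitor known as a translational target of Musashi-1, fell from 2594 ± 50.5 to 1600 ± 185 (-0.70). Gsn, which encodes the actin-severing protein gelsolin and is also made by oligodendrocytes, fell from 7256 ± 1346 to 1763 ± 104 (-2.03). All 9 oligodendrocyte markers fell with it, and their part was not tested.

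Of 15 other high mobility group genes, 12 rose, 1 fell and 2 did not pass, with a median log2 fold change of 1.67. Tox3 rose from 75.6 ± 9.46 to 5416 ± 342 normalized counts (SD, n = 3; log2 fold change 6.15). Hmgb2, a chromatin protein gene of dividing cells, rose from 343.6 ± 22.6 to 18609 ± 2389 (5.75). Tox2 fell from 175.9 ± 15.3 to 75.4 ± 21.1 (-1.24). The members Hmga1 and Hmga2, at 0.89 and 2.08, lay within the range of this list.

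**Figure D5:**
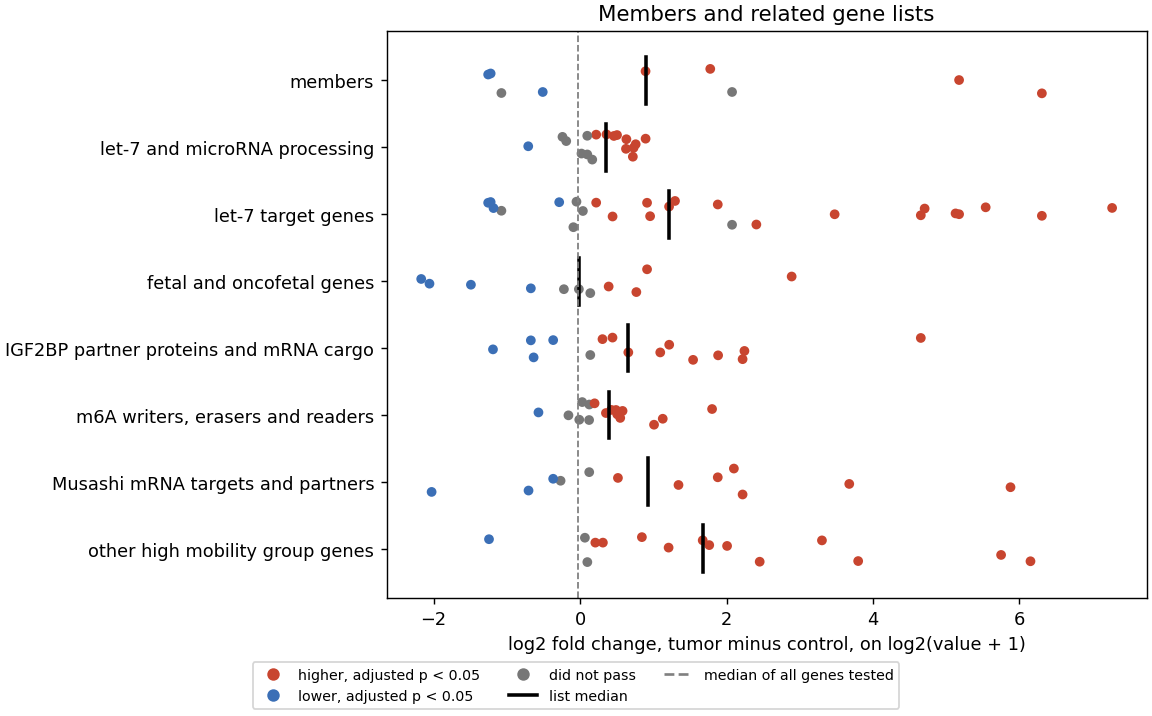
Log2 fold change, tumor minus control, on log2(value + 1) (x axis) of the tested genes of each list (y axis), with red for higher, blue for lower and grey for genes that did not pass. Black bars are list medians, from -0.02 for fetal and oncofetal genes to 1.67 for other high mobility group genes, and the dashed line is the median of all tested genes, -0.02.

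Promoter windows from 250 bases before to 50 after the annotated start were taken from RefSeq (GRCm38.p6), where 7 of the 9 members matched by symbol and Igf2bp1 and Msi1 did not. The E-box CACGTG, the motif of MYC family proteins and other factors, reads the same on both strands and was found in 8.09% of 27025 genes. Igf2bp3 held 2, at -23 and 5 from the start, a number reached by 0.681% of genes. Lin28b held 1 at -49, Msi2 held 2 in each of its 3 overlapping windows, and the other 4 matched members held 0. In GENCODE M21 Lin28b starts further upstream, at base 45486395 of chr10, where no window was searched. The GLI motif GACCACCCA and the E2F motifs TTTCGCGC and TTTGGCGC, searched on both strands, were found in 0 members and in 0.289%, 0.374% and 0.585% of genes. A motif is a run of letters, and its part in the levels of these genes was not tested. The windows of Igf2bp3 and Lin28b are printed because both hold the E-box while the genes moved in opposite directions, with the E-box in capitals.
Igf2bp3 promoter, chr6:49214905-49215204, minus strand: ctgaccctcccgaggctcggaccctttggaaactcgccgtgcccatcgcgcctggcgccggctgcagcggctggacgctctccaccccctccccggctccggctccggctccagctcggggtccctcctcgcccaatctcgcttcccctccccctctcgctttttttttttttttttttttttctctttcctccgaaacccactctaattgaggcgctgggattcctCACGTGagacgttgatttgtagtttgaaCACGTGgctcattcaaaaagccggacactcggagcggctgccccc
Lin28b promoter, chr10:45470152-45470451, minus strand: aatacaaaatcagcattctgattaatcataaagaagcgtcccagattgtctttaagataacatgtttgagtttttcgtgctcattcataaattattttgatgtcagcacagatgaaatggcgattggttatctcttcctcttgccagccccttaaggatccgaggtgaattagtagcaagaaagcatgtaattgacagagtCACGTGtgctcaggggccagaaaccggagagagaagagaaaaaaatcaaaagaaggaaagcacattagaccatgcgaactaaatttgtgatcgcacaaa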

How the data were processed

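Per the labels' protocols, total RNA of 3 tumor samples and 3 control cerebellum samples was taken with TRIzol, cleaned on columns and turned into TruSeq RNA libraries. Per the submitters' processing notes, FastQC, Bowtie2 2.2.4, featureCounts, edgeR and the build mm10 were used, with no roles given. The sources used here do not give the annotation release, the counting options or the use of strand. The authors deposited a table of all genes whose values are a signal, namely reads per gene over the size factor of the library. The values show this, since 100% were whole multiples of the value of 1 read, within 1e-06. Sample titles gave the groups and the replicate numbers.

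The main test was limma 3.58.1 (R 4.3.3), run on log2(value + 1) with the trend option, for genes above 1 in at least 3 libraries. P-values were adjusted by Benjamini-Hochberg over all genes tested and called under 0.05. The planned test for normalized values was limma, and edgeR was planned for raw counts. On the recovered reads, edgeR 4.0.16 (quasi-likelihood, TMM) called 13411 genes (60.6%) and DESeq2 1.42.0 called 13147 (59.4%). Paralog ratios were tested by exact permutation, two-sided. The chi-square per degree of freedom between replicates was 10.9 or more, so no libraries were alike within sampling noise. Counting intervals and floors cover counting error only. The main test was run on simulated counts, with changes set only in genes with more reads than Lin28a and Hmga2 had. It recovered 48% of 1.5-fold, 78% of 2-fold, 88% of 4-fold and 100% of 8-fold changes.

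The members, the gene lists and the tests were chosen with earlier results of these data known. Named from each list were those called genes whose log2 fold changes were the 2 highest or the 2 lowest, and 1 gene that this rule names is not reported here. Zcchc11, Dis3l2, Trim71, Igf2r, H19, Mettl3, Fto, Nr6a1, Ccnd1 and Ccnd2 and the let-7 loci were chosen after their values were seen. Pattern likeness was measured for the members with the highest and the lowest fold change. Alternatives covered scaling, pseudocounts, filters, other tests, the replicate number as a block and leaving out each library.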

Additional observations from a re-analysis of the deposited data

How the results depend on the processing

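Over 17 alternatives, 4 to 5 members were called higher and 2 to 3 lower, and over all genes 5787 to 7378 were higher and 5622 to 7619 lower. Igf2bp1, Igf2bp3, Msi1, Hmga1, Lin28b and Msi2 kept their direction and call in all 17, and the other members kept their direction in each of the 16 that gave them a value. Igf2bp2, Lin28a and Hmga2 were not tested with the filter of more than 1 CPM in 3 libraries. The call of Igf2bp2 was lost and that of Hmga2 gained as given in the report. The Lin28b to Lin28a ratio reversed to 0.12 with a pseudocount of 0.5 and ran from -1.01 to 0.69 when libraries were left out, and Hmga2 to Hmga1 ran from -0.15 to 1.89. The Mirlet7i log2 fold change ran from -0.92 to 0.11 in the same way. The cause was not tested. With upper-quartile factors the median log2 fold change of all genes moved to -0.13, and with library totals to 0.07.

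With the replicate number as a block, 6744 genes were higher and 6943 lower, with 5 and 3 members. Of the members' calls, it changed that of Hmga2. Deviations of control and tumor libraries with the same number had correlations of 0.022, -0.051 and -0.0073, so the numbers were not taken to pair them, and control 1, 2 and 3 correlated best with tumors 2, 3 and 2. Depth limits Lin28a, Hmga2 and the control level of Igf2bp1, which rest on 9, 21 and 7 reads in control.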
